A study of Mus musculus with 12 samples.

Results

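Transforming growth factor beta (TGF-beta) and activin signalling was followed through 10 genes of wounded mouse epidermis. These were chosen by name for their place in the pathway, with earlier results of these data known, and matched to the deposited count table by symbol. They were the ligand genes Tgfb1, Tgfb2, Tgfb3 and Inhba, the receptor genes Tgfbr1 and Tgfbr2, the latency gene Ltbp1, the antagonist gene Fst, and Tgfbi and Smad7 as targets. All 10 were found among the 55341 rows of the table, and all 10 passed the filter on low counts together with 16677 genes in all. TGF-beta is secreted in a latent complex, held in the matrix by latent TGF-beta binding proteins, and acts after release on a pair of serine-threonine kinase receptors that activate Smad transcription factors. Activin A, a dimer of the Inhba product, uses related receptors, and follistatin, the Fst product, binds and blocks it. In skin, TGF-beta restrains keratinocyte division and shapes migration and matrix, and activin is induced in wounds.

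The cells came from skin 3 days after wounding, from tissue within 0.25 mm of the wound. Each library pooled cells of 2 or 3 animals. Live Epcam-positive, integrin alpha6-positive cells were sorted, without cells bearing CD45, CD31 or CD117, and were divided by integrin alpha5. Alpha5-positive cells (A5-POS) were assigned by the submitters to the migrating tongue and alpha5-negative cells (A5-NEG) to the wound edge behind it. The mice were wild type (WT) or RORgt deficient through a GFP knock-in (GFP-KI), an allele of the whole animal and not of keratinocytes alone, in a study of how interleukin-17 shapes the response of injured epithelium to low oxygen. Each of the 4 groups, WT A5-NEG, WT A5-POS, RORgt-deficient A5-NEG and RORgt-deficient A5-POS, had 3 libraries, and all mice were wounded, so no unwounded skin stands beside them. The p-values below measure the spread between these pools, and the labels do not say whether pools of different numbers came from separate mice. Nor do they say whether A5-POS and A5-NEG libraries of the same genotype and number came from the same mice. The tests treated all libraries as independent unless the library number was added to the model.

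Total counts ran from 29293687 to 74563616 per library. Keratinocyte markers were high in every library (9 genes, summed level 32911 to 78188 CPM, counts scaled to the total counts of the library), and T cell and endothelial markers were low (at most 6.16 and 39.3 CPM). Fibroblast markers were not absent: Postn apart, which had at least 682 CPM in every library and was set aside after its values were seen, 13 markers summed to 54.1 to 504 CPM in A5-NEG and 3806 to 16329 CPM in A5-POS libraries. Langerhans and dendritic cell markers (6 genes) summed to 270 to 3460 CPM, highest in WT A5-NEG library 1. Macrophage markers (12 genes) summed to 1544 CPM in WT A5-NEG library 1, to 617 and 630 CPM in RORgt-deficient A5-NEG libraries 1 and 3, and to at most 310 CPM in each other library. In these bulk samples a lower level can come from fewer cells of a type or from less RNA per cell, which cannot be told apart.

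Of the 10, Ltbp1 was the gene whose level differed most between the fractions, and it is the one whose start regions are shown. It lies on chromosome 17 of GRCm38 (75005568 to 75392512, plus strand), has no exon in common with another annotated gene, and is transcribed from 2 RefSeq starts far apart, which give a longer and a shorter protein. Counts per gene do not separate these forms. The 250 bases before each start are given 5′ to 3′ (RefSeq, GRCm38.p6, plus strand, chr17:75005279-75005528 for the upstream start and chr17:75178531-75178780 for the downstream start), with the short Smad-box letters GTCTG or, on the other strand, CAGAC in capitals.
Ltbp1 upstream start: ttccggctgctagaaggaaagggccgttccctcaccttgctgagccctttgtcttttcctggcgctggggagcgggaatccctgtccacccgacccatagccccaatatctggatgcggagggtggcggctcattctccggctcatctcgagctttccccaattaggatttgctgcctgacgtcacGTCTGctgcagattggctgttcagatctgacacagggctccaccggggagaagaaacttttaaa
Ltbp1 downstream start: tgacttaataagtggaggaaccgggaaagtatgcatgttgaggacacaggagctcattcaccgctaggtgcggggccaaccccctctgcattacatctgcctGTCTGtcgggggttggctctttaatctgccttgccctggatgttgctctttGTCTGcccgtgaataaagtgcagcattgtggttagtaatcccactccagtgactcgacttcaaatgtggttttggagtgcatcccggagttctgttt
The upstream region held 1 such match and the downstream region 2. These letters occur in 42.2% of 32851 RefSeq promoter regions of the same length, on either strand. Neither region held the palindrome GTCTAGAC (0.167% of promoter regions) or the AP-1 letters TGANTCA (6.75%). A match is a description of these letters and not a site.

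The other 9 genes are given by their place in GRCm38 (GENCODE M21), each protein-coding. Tgfb1 lies on chromosome 7 (25687002 to 25705077, plus strand), Tgfb2 on chromosome 1 (186622792 to 186705989, minus strand) and Tgfb3 on chromosome 12 (86056745 to 86079041, minus strand). Tgfbr1 lies on chromosome 4 (47353222 to 47414931, plus strand) and Tgfbr2 on chromosome 9 (116084293 to 116175360, minus strand). Inhba (16011851 to 16031621, plus strand), Tgfbi (56609523 to 56639562, plus strand) and Fst (114452290 to 114458951, minus strand) share chromosome 13, and Smad7 lies on chromosome 18 (75367529 to 75395935, plus strand). Exons of Tgfb2, Tgfb3 and Fst overlap annotated genes on the other strand (Gm29491 for Tgfb2, Gm37804 and Gm48008 for Tgfb3, Gm47040 for Fst). The strand setting of the counting is not given in the sources used here, so reads from these pairs cannot be told apart.

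Per kilobase of exon, on the scale of CPM scaled by TMM factors, the order of mean levels over the 12 libraries ran from Tgfbi at 292 ± 67.0 CPM per kilobase (SD, n = 12), Fst at 65.0 ± 16.5 and Tgfbr2 at 28.3 ± 4.87 down to Inhba at 2.27 ± 1.05 and Tgfb2 at 1.96 ± 0.843. Between them stood Smad7 at 14.9 ± 3.61, Tgfbr1 at 13.9 ± 3.88, Tgfb1 at 11.99 ± 2.32, Ltbp1 at 8.29 ± 5.34 and Tgfb3 at 6.62 ± 1.86 CPM per kilobase. Tgfbr1 lay within 1 SD of both Smad7 and Tgfb1, and Inhba and Tgfb2 lay within 1 SD of each other. Tgfbi encodes a secreted matrix protein induced by TGF-beta, and its level per kilobase was the highest of the 10 in every group. Tgfb1 made up 47.4% to 66.0% of the summed per-kilobase level of the 3 TGF-beta genes in each library, Tgfb3 22.9% to 44.2% and Tgfb2 4.19% to 17.9%.

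**Figure D1:**
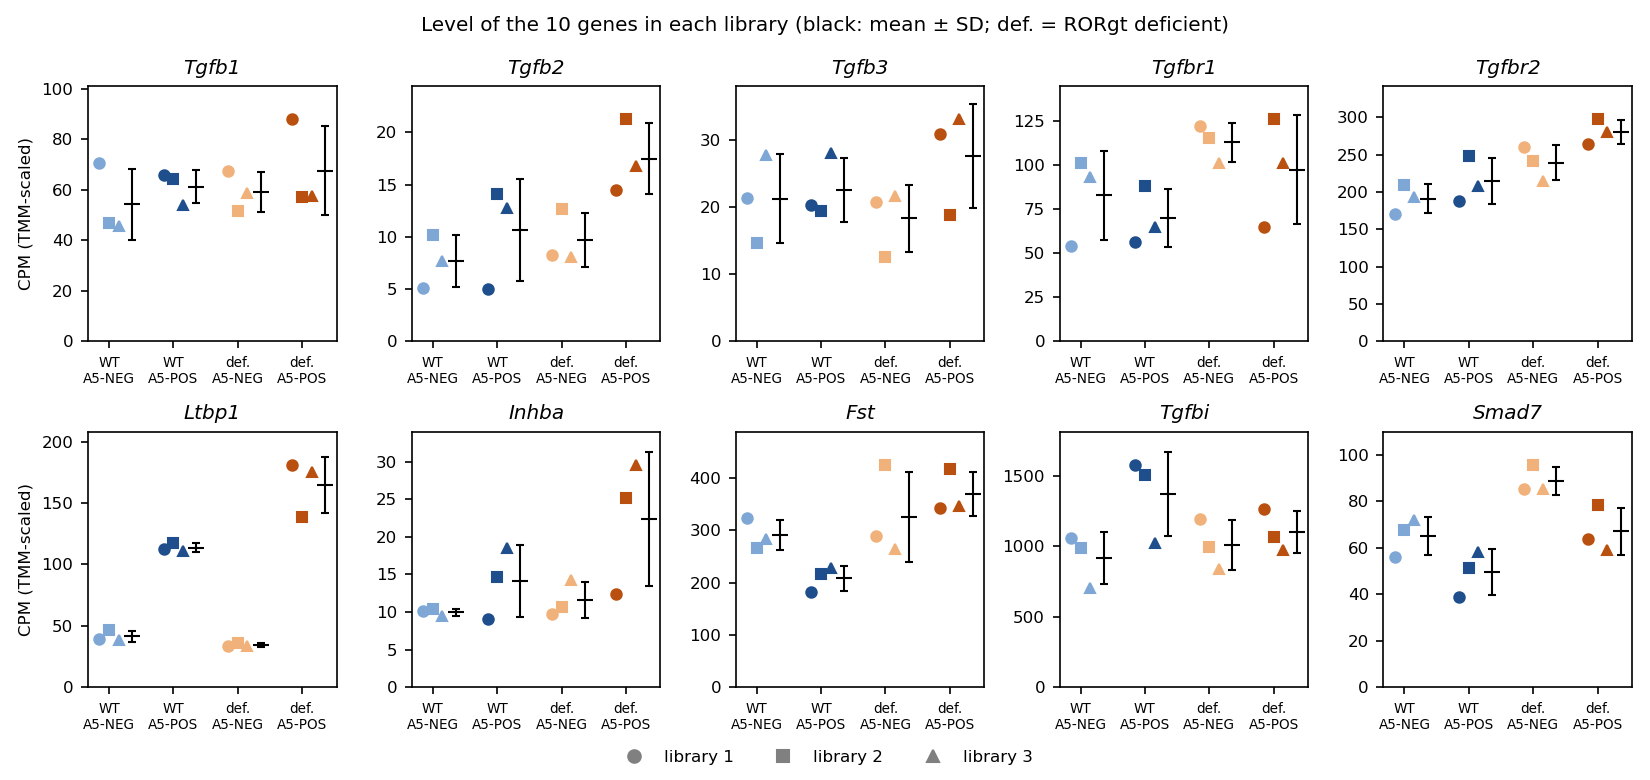
Level of the 10 genes in each library, in TMM-scaled CPM on a linear axis from 0; circles, squares and triangles are libraries 1, 2 and 3 of a group, and black bars the mean ± SD of 3 libraries. Ltbp1 lies between 33.6 and 46.3 CPM in the A5-NEG libraries and between 111 and 181 CPM in the A5-POS libraries, while Tgfb1 overlaps across all 4 groups.

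The A5 comparison in WT mice asked how cells assigned to the migrating tongue differ from those of the wound edge. Of the 10 genes, Ltbp1 passed the test and was higher in A5-POS cells (1 of 10, against 3.45% of all tested genes in either direction, 3.12% higher and 0.33% lower). Libraries carry numbers 1 to 3 in their titles, and those sharing a number deviated together. Adding that number to the model as a block added Tgfbi (2 of 10, both higher, against 14.4% of all genes, 8.76% higher and 5.59% lower). Levels did not overlap between the fractions for 2 of the 10, Ltbp1 (higher) and Fst (lower), against 25% of all genes, 15.9% higher and 9.12% lower. The median change of the 10 was 0.17 on the log2 scale, beside 0.03 over all tested genes. In RORgt-deficient mice 1 of the 10 passed, again Ltbp1 (5.52% of all genes, 4.56% higher and 0.965% lower), and with the block 4 rose, Ltbp1, Tgfb2, Tgfb3 and Inhba (17.6% of all genes, 10.1% higher and 7.54% lower). Levels there did not overlap for 4 of the 10, Tgfb2, Tgfbr2 and Ltbp1 upward and Smad7 downward (25.6% of all genes, 14.3% higher and 11.3% lower), and the median was 0.21, beside -0.000335 over all genes.

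Ltbp1 encodes a protein that anchors latent TGF-beta in the matrix. In WT mice its libraries 1 to 3 had 39.1, 46.3 and 38.8 CPM in A5-NEG and 113, 118 and 111 CPM in A5-POS cells. In RORgt-deficient mice they had 33.7, 36.3 and 33.6 CPM in A5-NEG and 181, 139 and 175 CPM in A5-POS cells. Every A5-POS library was above every A5-NEG library in both genotypes. The change between fractions was 1.46 ± 0.13 (log2 fold change ± SE) in WT (edgeR quasi-likelihood, adjusted p = 0.00013) and 2.26 ± 0.13 in RORgt-deficient mice (adjusted p = 6.74e-06). By p-value it ranked 11th in WT and 2nd in RORgt-deficient mice among 16677 genes. Leaving out each of the 12 libraries in turn kept both calls (highest adjusted p = 0.00188 and 0.000173).

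The fibroblast markers, like Ltbp1, were higher in A5-POS than in A5-NEG libraries. Without Postn, the 13 others together reached 216, 82.2 and 230 CPM in WT A5-NEG libraries 1 to 3 and 3806, 5941 and 8288 CPM in WT A5-POS. In RORgt-deficient mice the sums were 504, 54.1 and 82.8 CPM in A5-NEG and 15111, 9564 and 16329 CPM in A5-POS libraries. Within groups the order was not shared throughout. In A5-NEG cells of both genotypes Ltbp1 was highest in library 2, where the sum was lowest. In WT A5-POS it was lowest in library 3, where the sum was highest. In RORgt-deficient A5-POS library 2 was lowest in both. Of 14 listed markers, 11 passed upward in each genotype, with median changes of 4.92 and 5.54, and none was at 0 counts in any library. The 3 genes whose log2 levels were most like Ltbp1 over the 12 libraries were Serpina3n (Pearson r = 0.98), Aebp1 (r = 0.98) and Chpf (r = 0.98), chosen from 9070 genes and described with no test, since all share the 4 groups. The part of fibroblast RNA in the A5 effect on Ltbp1 was not tested.

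**Figure D2:**
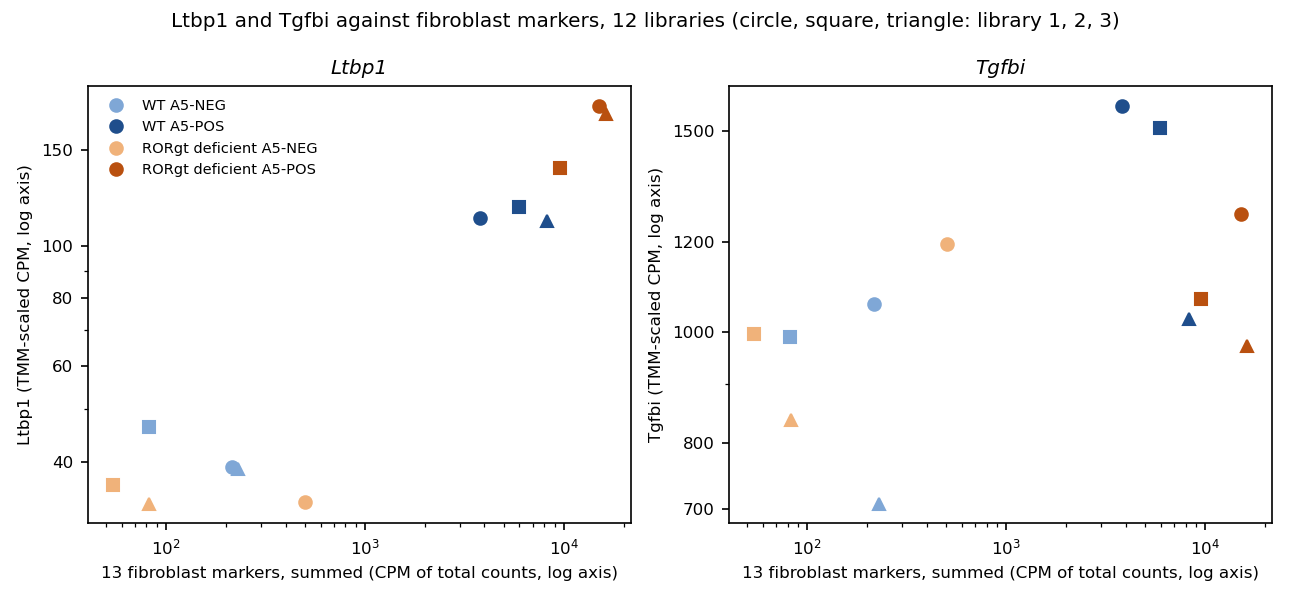
Ltbp1 (left) and Tgfbi (right), in TMM-scaled CPM, against the summed level of 13 fibroblast markers in CPM of the total counts, both on log axes, with 1 point per library. The A5-POS libraries stand apart on the marker axis (3806 to 16329 CPM) from the A5-NEG libraries (54.1 to 504 CPM), and Ltbp1 is higher in all of them, while Tgfbi in WT A5-POS is highest in the library with the lowest marker sum of that group.

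Tgfbi had 1058, 989 and 708 CPM in WT A5-NEG and 1578, 1509.7 and 1027 CPM in WT A5-POS libraries 1 to 3. Within each number the A5-POS library was the higher, although A5-POS library 3 was below A5-NEG library 1. Its change was 0.58 ± 0.21 (adjusted p = 0.152), and with the block it rose by 0.58 ± 0.10 (edgeR, adjusted p = 0.00621), a call that ended without WT A5-NEG library 3 (0.50, adjusted p = 0.0528). In RORgt-deficient mice the libraries had 1193, 996 and 838 CPM in A5-NEG and 1268, 1069.7 and 972 CPM in A5-POS cells, which overlap. The change there was 0.13 ± 0.21 (adjusted p = 0.751). The difference between the 2 genotypes' A5 effects was -0.45 ± 0.30 (interaction, adjusted p = 0.9999, and 0.914 with the block). Krt5, a basal keratin gene, was the gene most like Tgfbi over the 12 libraries (r = 0.96).

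Among the TGF-beta ligands, Tgfb2 and Tgfb3 passed with the block in RORgt-deficient mice, and none passed in WT mice. Tgfb2 had 8.27, 12.7 and 8.06 CPM in RORgt-deficient A5-NEG and 14.5, 21.3 and 16.7 CPM in A5-POS libraries, so the fractions did not overlap. In WT mice it had 5.13, 10.2 and 7.71 CPM in A5-NEG and 5.02, 14.1 and 12.8 CPM in A5-POS libraries, with library 1 alike in both. The change was 0.86 ± 0.37 in RORgt-deficient mice (edgeR adjusted p = 0.199), and with the block 0.86 ± 0.22 (adjusted p = 0.0245). That call ended without RORgt-deficient A5-NEG library 2 (0.0711) or 3 (0.102) or A5-POS library 1 (0.131) or 3 (0.0664). Has2, a hyaluronan synthase gene, was the gene most like Tgfb2 (r = 0.99).

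Tgfb3 had 20.7, 12.5 and 21.6 CPM in RORgt-deficient A5-NEG and 30.9, 18.8 and 33.0 CPM in A5-POS libraries. Each A5-POS library exceeded the A5-NEG library of the same number, with library 2 lowest in both fractions, and the fractions overlapped. With the block it rose by 0.59 ± 0.14 (edgeR adjusted p = 0.0173, and 0.255 without the block), and the call ended without A5-NEG library 2 (0.0653) or 3 (0.072) or A5-POS library 1 (0.0982) or 3 (0.0596) of that genotype. In WT mice the levels were 21.3, 14.6 and 27.7 CPM in A5-NEG and 20.3, 19.3 and 28.0 CPM in A5-POS libraries, a change of 0.09 ± 0.29 (adjusted p = 0.886). Tgfb1, the main TGF-beta gene of these libraries by level, had 70.4, 46.7 and 45.4 CPM in WT A5-NEG and 65.7, 64.2 and 53.8 CPM in WT A5-POS libraries. Its A5 change was 0.18 ± 0.21 in WT (adjusted p = 0.658) and 0.19 ± 0.21 in RORgt-deficient mice (adjusted p = 0.623), where it had 67.3, 51.4 and 58.8 against 87.8, 57.0 and 57.5 CPM. The WT A5-NEG library with the highest Tgfb1 was the one with 1544 CPM of macrophage markers, and without it the WT change was 0.41 (adjusted p = 0.283). Library 1 had the highest Tgfb1 in the other groups too. Its macrophage markers summed to 108 CPM in WT A5-POS, 617 in RORgt-deficient A5-NEG and 242 in RORgt-deficient A5-POS. The part of macrophage RNA in the Tgfb1 levels was not tested.

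Inhba, the activin A gene, had 10.1, 10.3 and 9.42 CPM in WT A5-NEG and 9.03, 14.7 and 18.6 CPM in WT A5-POS libraries. In RORgt-deficient mice it had 9.67, 10.7 and 14.3 CPM in A5-NEG and 12.4, 25.2 and 29.5 CPM in A5-POS libraries. A5-POS library 1 lay below the A5-NEG range in WT and within it in RORgt-deficient mice, and A5-POS libraries 2 and 3 lay above it in both. The change was 0.50 ± 0.32 in WT (adjusted p = 0.385) and 0.96 ± 0.32 in RORgt-deficient mice (edgeR adjusted p = 0.11). With the block Inhba rose in RORgt-deficient mice by 0.90 ± 0.23 (adjusted p = 0.0211). That call ended without RORgt-deficient A5-NEG library 1 (0.0624), 2 (0.0849) or 3 (0.0667) or A5-POS library 2 (0.0766) or 3 (0.108). DESeq2 called it as well (0.95, adjusted p = 0.0443).

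Fst, the follistatin gene, was expressed far above Inhba. Its per-kilobase level was 16.3 to 55.2 times that of Inhba across the 12 libraries. Inhbb, another ligand gene, named after its values were seen, had group means of 5.32 to 7.83 CPM per kilobase. The group means of Inhba were 1.56 to 3.50 and those of Fst 45.3 to 80.4 CPM per kilobase. In WT mice Fst had 323, 266 and 283 CPM in A5-NEG and 181, 216 and 227 CPM in A5-POS libraries, which did not overlap, and its change of -0.48 ± 0.18 did not pass (adjusted p = 0.16, and 0.0609 with the block). In RORgt-deficient mice it had 289, 424 and 264 CPM in A5-NEG and 342, 418 and 346 CPM in A5-POS libraries, a change of 0.18 ± 0.18 (adjusted p = 0.58). The ratio of Fst to Inhba per kilobase was 40.7 ± 4.48 in WT A5-NEG and 21.8 ± 5.60 in WT A5-POS libraries (SD, n = 3), with no overlap between them. In RORgt-deficient mice it was 40.9 ± 14.7 and 25.9 ± 11.3, with overlap, and library 3 had the lowest ratio in both fractions. These ratios were not tested.

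The receptor genes passed in neither genotype. Tgfbr2, the receptor that binds the ligand, had 170.4, 209 and 194 CPM in WT A5-NEG and 188, 249 and 209 CPM in WT A5-POS libraries, a change of 0.17 ± 0.14 (adjusted p = 0.497). In RORgt-deficient mice it had 261, 242 and 215 CPM in A5-NEG and 265, 298 and 280.1 CPM in A5-POS libraries, a change of 0.23 ± 0.14 (adjusted p = 0.334). Tgfbr1, the receptor kinase that phosphorylates Smads, had 54.0, 101 and 93.1 CPM in WT A5-NEG and 56.2, 88.2 and 64.9 CPM in WT A5-POS libraries. In RORgt-deficient mice it had 122, 115 and 101 CPM in A5-NEG and 64.7, 126 and 101 CPM in A5-POS libraries. The fractions overlapped in both genotypes, with changes of -0.25 ± 0.27 in WT and -0.21 ± 0.27 in RORgt-deficient mice (adjusted p = 0.63 and 0.669). Smad7, the inhibitory Smad induced by TGF-beta, had 56.1, 67.5 and 71.7 CPM in WT A5-NEG and 38.8, 51.4 and 58.3 CPM in WT A5-POS libraries. It had 85.1, 95.5 and 85.4 CPM in RORgt-deficient A5-NEG and 63.6, 78.5 and 59.0 CPM in A5-POS libraries, which did not overlap. Its changes of -0.40 ± 0.17 in both genotypes did not pass (adjusted p = 0.208 and 0.185, and 0.0663 and 0.0557 with the block). The genes most like Smad7 over the 12 libraries were Mafk (r = 0.98) and Maff (r = 0.98), small Maf genes that respond quickly to stimuli, and Slc25a25 (r = 0.98).

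**Figure D3:**
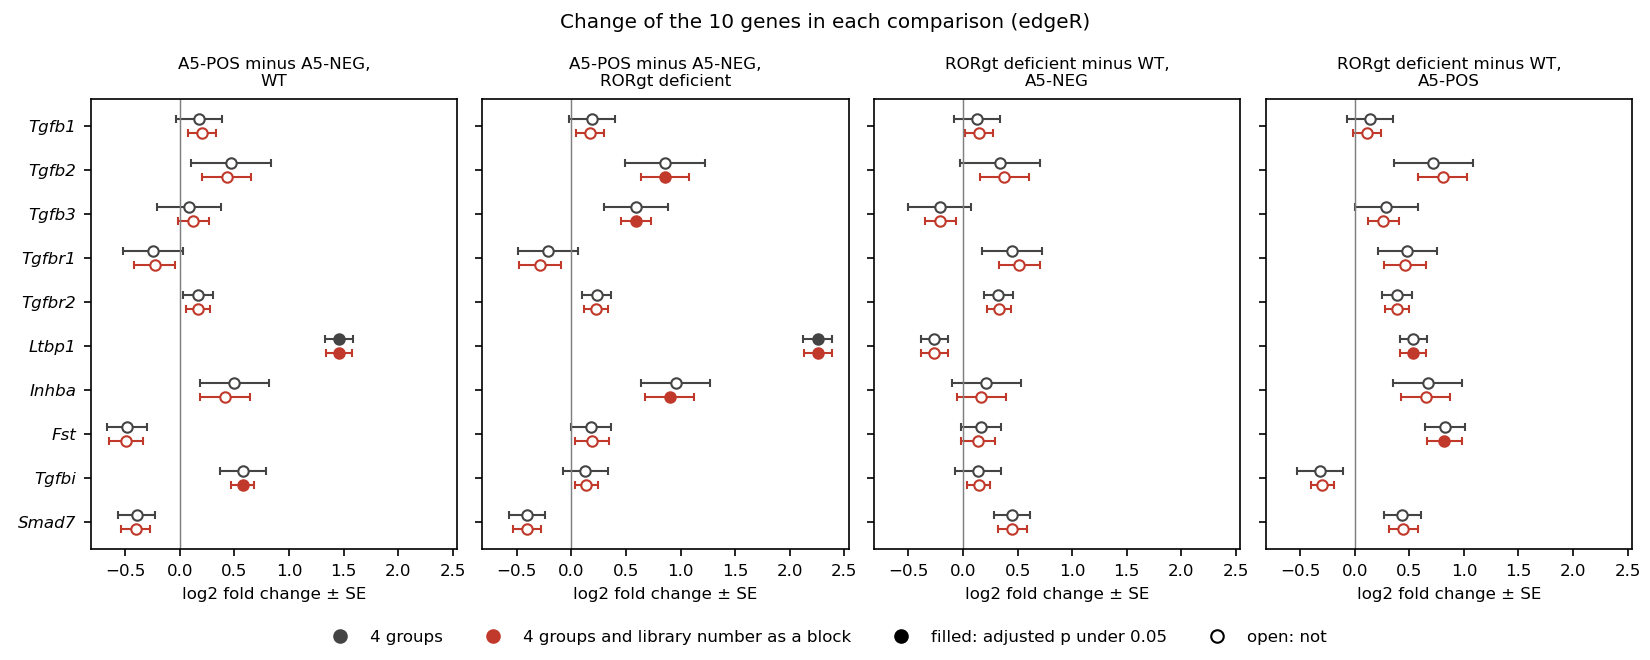
Log2 fold change ± SE of the 10 genes in the 4 comparisons of groups, from edgeR fits of the 4 groups (grey) and with the library number as a block (red); filled points have an adjusted p under 0.05. Ltbp1 stands at 1.46 and 2.26 in the 2 A5 comparisons, and in RORgt-deficient against WT A5-POS cells 9 of the 10 points lie above 0 with 2 filled, both with the block. Over all 16677 tested genes, 8373 changes of that comparison were above 0 without the block.

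The genotype comparisons asked what differed in mice that lack RORgt, whose lymphocytes are a main source of interleukin-17. In A5-NEG cells none of the 10 genes passed without the block or with it (edgeR quasi-likelihood, 0.006% of all genes in each fit), nor with DESeq2. There 2 of the 10 had an unadjusted p under 0.05, 3 with the block, against 849 and 2522 of all 16677 genes. Levels did not overlap between genotypes for 3 of the 10 (15.6% of all genes, 7.33% higher and 8.26% lower). Smad7 was among them, higher in RORgt-deficient mice, with a change of 0.45 ± 0.17 (adjusted p = 0.779, and 0.183 with the block), as was Tgfbr2, with 0.32 ± 0.14 (adjusted p = 0.779). Ltbp1 was lower in every RORgt-deficient A5-NEG library than in every WT one, with -0.26 ± 0.13 (adjusted p = 0.779, and 0.337 with the block).

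In A5-POS cells 2 of the 10 passed with the block, Ltbp1 and Fst, and both were higher in RORgt-deficient mice (4.02% of all genes in either direction, 2.26% higher and 1.76% lower). Without the block none passed (0.006% of all genes). An unadjusted p under 0.05 was found for 4 of the 10 without the block and 8 with it, against 2497 and 4139 of all 16677 genes. Levels did not overlap for 5 of the 10, Tgfb2, Tgfbr2, Ltbp1, Fst and Smad7, all higher in RORgt-deficient mice (18.1% of all genes in either direction, 9.04% higher and 9.01% lower). The median change of the 10 was 0.46, beside 0.00 over all tested genes. Fst was higher in every RORgt-deficient library, with a change of 0.83 ± 0.18 (edgeR adjusted p = 0.178), and with the block it rose by 0.82 ± 0.16 (adjusted p = 0.0362). Ltbp1 changed by 0.54 ± 0.13 (adjusted p = 0.178), and with the block it rose by 0.54 ± 0.12 (adjusted p = 0.0404). DESeq2 without a block called both (adjusted p = 0.00565 and 0.00407).

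These block calls were near the threshold. For Fst the call ended without WT A5-POS library 1 (0.161) or 2 (0.119), RORgt-deficient A5-POS library 1 (0.0671), 2 (0.133) or 3 (0.0799), and WT A5-NEG library 2 (0.0521) or 3 (0.0627). For Ltbp1 it ended without WT A5-POS library 1 (0.162), 2 (0.112) or 3 (0.0546), RORgt-deficient A5-POS library 1 (0.0906) or 3 (0.111), RORgt-deficient A5-NEG library 2 (0.0512), and WT A5-NEG library 2 (0.0579) or 3 (0.0641). The fibroblast markers were also higher in RORgt-deficient A5-POS libraries (9564 to 16329 CPM, against 3806 to 8288 CPM in WT), with a median change of 1.12 over 14 markers, of which 1 passed with the block. Their part in the Ltbp1 and Fst values was not tested. Tgfb2 in A5-POS cells changed by 0.72 ± 0.36 (adjusted p = 0.368, and 0.0673 with the block), Inhba by 0.67 ± 0.32 (adjusted p = 0.343), Tgfbr2 by 0.38 ± 0.14 (adjusted p = 0.241, and 0.0683 with the block) and Tgfbi by -0.31 ± 0.21 (adjusted p = 0.488).

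Whether the A5 effect itself differed between genotypes was tested as an interaction. None of the 10 genes passed with edgeR (0% of all genes with the block or without). Without the block 2 of the 10 had an unadjusted p under 0.05 and with it 4, against 458 and 910 of all 16677 genes. Ltbp1 had the 4th smallest p of all genes, with a difference of 0.80 ± 0.18 between the A5 effects (unadjusted p = 0.00073, adjusted p = 0.9999, and 0.779 with the block). DESeq2 called it (0.83, adjusted p = 0.0223), 1 of 8 genes it called. Fst had a difference of 0.66 ± 0.25 (adjusted p = 0.9999), from a negative A5 change in WT to a positive one in RORgt-deficient mice, neither of which passed.

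The libraries also differed by number in ways that ran through the 4 groups. Tgfb2 was highest in library 2 of every group, and Tgfb3 was lowest in library 2 of every group. Tgfb1 was highest in library 1 and Tgfbi lowest in library 3 of each group. The labels do not say what a number marks beyond the mention of sequencing runs.

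A list of 57 TGF-beta and activin genes, which holds the 10, put these values in their pathway, and 52 were tested. Mstn, Nodal, Acvr1c, Cer1 and Foxh1 did not pass the filter. In WT mice 4 of the 52 rose in A5-POS cells and none fell (3.45% of all tested genes passed), and with the block 8 rose and 3 fell (14.4% of all tested genes passed). In RORgt-deficient mice 7 rose and none fell (5.52% of all tested genes passed), while the block gave 13 higher and 3 lower (17.6%). The median change over the 52 was -0.01 and 0.07, beside 0.03 and -0.000335 over all tested genes. By role, in RORgt-deficient mice 3 of 10 latency and activation genes and 4 of 12 targets rose (Ltbp2 is in both roles), with 1 of 4 antagonists, and none of 7 ligands, 7 receptors, 5 Smads and partners or 8 negative regulators passed without the block. In WT mice 1 of 10 latency genes, 2 of 12 targets and 1 of 4 antagonists rose. The counts of each genotype, over the list and among its targets, include Itga5, whose protein defined the sort. These counts by role were not tested against other genes.

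The antagonist that rose was Dcn, which encodes decorin, a matrix proteoglycan that binds TGF-beta and is also one of the 14 fibroblast markers. It rose by 4.76 ± 0.56 in WT (adjusted p = 0.000877) and 7.08 ± 0.62 in RORgt-deficient mice (adjusted p = 5.25e-05), from 4.32 to 26.8 CPM in A5-NEG to 249 to 1233 CPM in A5-POS libraries. Tnc, the tenascin-C gene, rose by 1.85 ± 0.39 (adjusted p = 0.025) and 2.35 ± 0.40 (adjusted p = 0.00466). The WT call for Tnc ended without WT A5-NEG library 1 or 3 or A5-POS library 2 or 3 (highest adjusted p = 0.138), and with the block without A5-NEG library 3 (0.0629). Itga5 rose in both, but integrin alpha5 defined the sort, so this is no finding. Ltbp2 and Lrrc32, which also rose without the block in RORgt-deficient mice, are named here after their values were seen. Ltbp2, a relative of Ltbp1 that does not bind latent TGF-beta, rose by 2.32 ± 0.55 (adjusted p = 0.0299), and Lrrc32, which displays latent TGF-beta on the cell surface, by 1.155 ± 0.25 (adjusted p = 0.0167). Without the block both calls ended when any of 4 and 3 single libraries was left out (highest adjusted p = 0.123 and 0.0811), all from the 2 groups compared. With the block the Lrrc32 call held without each of the 12 libraries.

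With the block, Eng, which encodes the TGF-beta co-receptor endoglin, rose in both genotypes, by 2.03 ± 0.41 in WT (adjusted p = 0.0106) and 2.87 ± 0.42 in RORgt-deficient mice (adjusted p = 0.00139). Its level stayed low, at 0.458 to 5.74 CPM in A5-NEG and 5.34 to 15.4 CPM in A5-POS libraries, and the WT call ended without A5-POS library 2 (0.0574). Summed fibroblast markers were also higher in A5-POS than in A5-NEG libraries. The part of fibroblast RNA in the A5 changes of Dcn, Tnc, Ltbp2, Lrrc32 and Eng was not tested. The genes that fell with the block were Tgif1 (-0.62 ± 0.14, adjusted p = 0.0196), Nrros (-1.97 ± 0.54, adjusted p = 0.0338) and Skil (-0.57 ± 0.16, adjusted p = 0.0406) in WT. They were Cdkn2b (-0.64 ± 0.14, adjusted p = 0.013), Smurf2 (-0.51 ± 0.14, adjusted p = 0.0328) and Skil (-0.54 ± 0.16, adjusted p = 0.0445) in RORgt-deficient mice. Tgif1 and Skil encode repressors of Smad-driven transcription, Smurf2 a ubiquitin ligase of the pathway, and Cdkn2b a cell cycle inhibitor induced by TGF-beta. Nrros, a latency gene of macrophages, had 45.7, 4.94 and 13.4 CPM in WT A5-NEG libraries, in the same order as the macrophage sums of 1544, 94.7 and 310 CPM. Each of these 6 calls ended without at least 1 library of the groups compared.

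**Figure D4:**
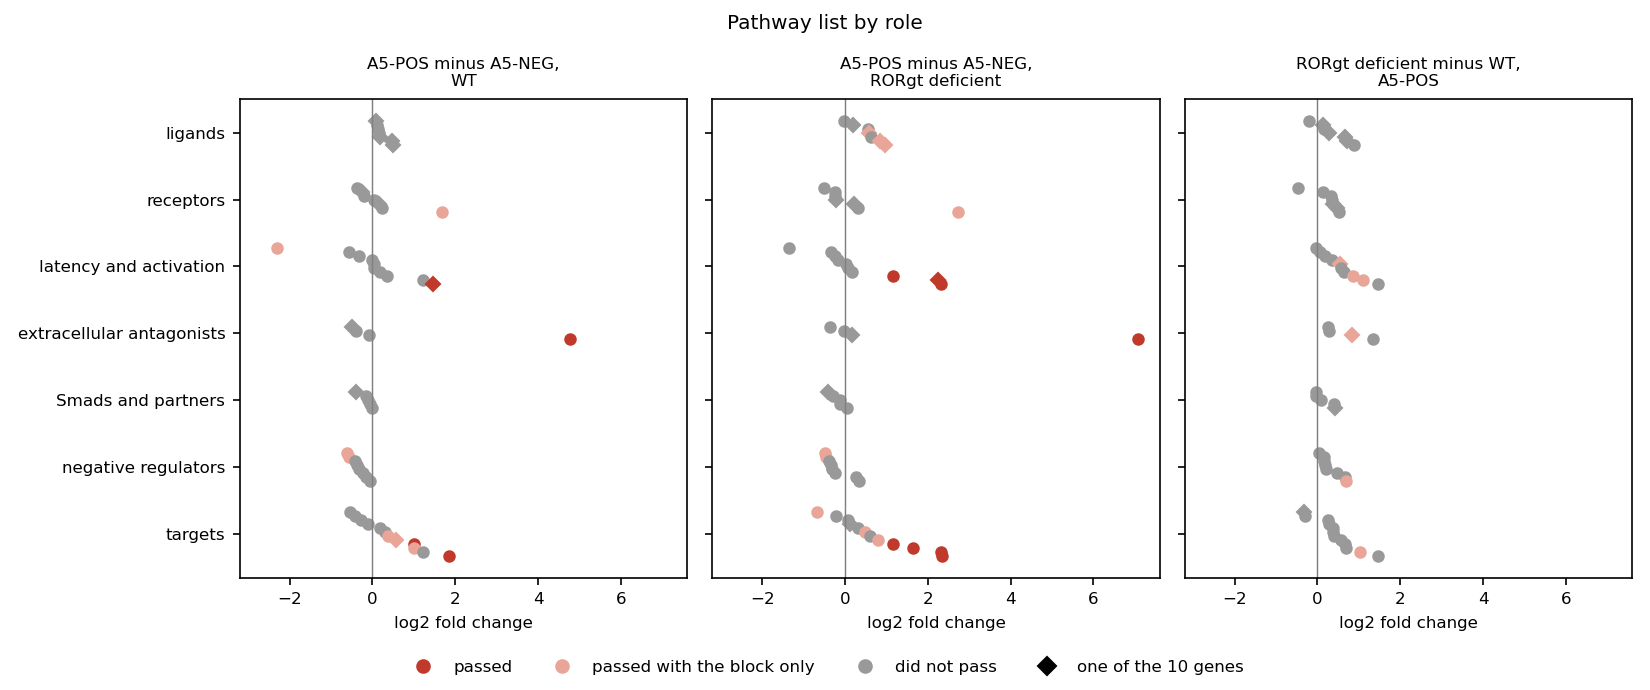
Log2 fold change of the 52 tested pathway genes by role (Ltbp2 stands in both the latency and the target row), in the A5 comparison of each genotype and in RORgt-deficient against WT A5-POS cells; diamonds are the 10 genes, dark red passed the edgeR test, light red only with the block. The rightmost point of the antagonist row is Dcn, at 4.76 and 7.08, and the Smad and ligand rows stay within 1 of 0 in WT.

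Between genotypes in A5-NEG cells none of the 52 passed with edgeR or DESeq2. There 5 had an unadjusted p under 0.05 and 10 with the block, against 849 and 2522 of all 16677 genes. In A5-POS cells none passed without the block, and with it 6 rose and none fell (2.26% of all tested genes rose and 1.76% fell). Unadjusted p-values under 0.05 numbered 15 without the block and 27 with it, against 2497 and 4139 of all 16677 genes. The change was positive for 45 of the 52 (8373 of all 16677 genes), and its median was 0.37 beside 0.00 over all tested genes. Beside Ltbp1 and Fst the 6 were Tgif1 (0.68 ± 0.14, adjusted p = 0.0385), Thbs1 (1.05 ± 0.24, adjusted p = 0.0422), Fn1 (0.95 ± 0.22, adjusted p = 0.0419) and Itgb6 (0.80 ± 0.20, adjusted p = 0.0464), the last named after its values were seen. Thbs1 encodes thrombospondin-1 and Itgb6 the beta6 integrin subunit, both activators of latent TGF-beta. With Ltbp1 they were 3 of the 10 latency and activation genes, a count that was not tested against other genes. Thbs1 had 2392, 3874 and 3450.0 CPM in WT and 5512, 10302 and 4999 CPM in RORgt-deficient A5-POS libraries 1 to 3, and Itgb6 had 77.3, 177 and 115 against 137, 375 and 161 CPM. Thbs1 did not overlap between genotypes and Itgb6 did, though within each number the RORgt-deficient library was the higher for both. Each of these 4 calls ended when any of 5 of the 6 compared libraries was left out (highest adjusted p = 0.165, 0.189, 0.161 and 0.208), and DESeq2 called Tgif1, Thbs1 and Fn1 (adjusted p = 0.0209, 0.0209 and 0.0409). Summed fibroblast markers were also higher in RORgt-deficient than in WT A5-POS libraries. Their part in the values of Tgif1, Thbs1, Fn1 and Itgb6 was not tested.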

How the data were processed

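Reads of 12 libraries (SMART-Seq v4) were processed by the submitters with bcl2fastq, Trimmomatic 0.36, STAR and featureCounts on mm10 (GRCm38), per the submitters' processing notes, and the deposited table holds raw counts per gene symbol. The 26 date-like symbols were left out (0.110% to 0.128% of counts per library). Genes were kept with edgeR's filterByExpr, scaled by TMM and tested in 1 model of 4 groups with edgeR 4.0.16 (quasi-likelihood F test, limma 3.58.1, R 4.3.3). P-values were adjusted by Benjamini-Hochberg over the 16677 tested genes of a comparison, with a threshold of 0.05. SE is the log2 change divided by the square root of F. Levels are TMM-scaled CPM, and marker sums are CPM of the total counts. Lengths are exon unions of GENCODE M21.

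Deviations from group means correlated at 0.153 to 0.722 in all 18 same-number pairs (9071 genes, median 0.452) and at -0.630 to 0.315 in 36 other pairs (median -0.238). Subtracting group means by itself lowers the values of the other pairs where same-number pairs are alike. Libraries that share a number thus deviated together, and the fit with that block is given beside each call it changes. No library pair within a group was a duplicate (chi-square per degree of freedom 66.4 to 188). The fits were tested on simulated data.

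The 10 genes and the lists were chosen with earlier results of these data known. The 10 were named throughout. Of the other pathway genes, the 3 with the smallest p per direction and comparison were named, and for each of the 10 the 3 genes most alike in log2 CPM (prior count 2, mean of at least 3) were ranked, of which the text gives some. Some results that these rules would name are not reported here. Alternatives were RLE scaling, DESeq2 1.42.0, no filter, a CPM of 5 in 3 libraries, the block, and leaving libraries out.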

Additional observations from a re-analysis of the deposited data

How the results depend on the processing

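The A5 calls of Ltbp1 held in both genotypes under RLE scaling, DESeq2, both filters, the block and without each single library. With DESeq2 the genes called over all tested genes numbered 1457 (A5 in WT), 1719 (A5 in RORgt-deficient mice), 21 (genotype in A5-NEG), 477 (genotype in A5-POS) and 8 (interaction), of the 10 genes 2 in A5 in RORgt-deficient mice, 2 in genotype in A5-POS and 1 in the interaction, and of the pathway list 5 in genotype in A5-POS and 1 in the interaction. Without a filter they numbered 939 in A5 in WT, 7 in genotype in A5-NEG and 67 in genotype in A5-POS, with 2 of the 10 in A5 in RORgt-deficient mice and 1 of the 10, which was also the 1 pathway gene, in genotype in A5-POS. With the replicate block they numbered 2394, 2937 and 670 in both A5 comparisons and genotype in A5-POS, with 2, 4 and 2 of the 10 and 11, 16 and 6 of the pathway list. The cause of these differences was not tested.

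With libraries left out, singly or all of 1 number, with the block or without, the A5 counts in WT ran from 38 to 3067 genes, 1 to 4 of the 10 and 1 to 21 of the pathway list. In RORgt-deficient mice they ran from 135 to 3080 genes, 1 to 5 of the 10 and 2 to 19 of the pathway list. Genotype counts ran from 1 to 4 genes in A5-NEG, and in A5-POS from 1 to 1248 genes, 0 to 5 of the 10 and 0 to 14 of the pathway list. The lowest gene counts of both A5 comparisons came without all libraries numbered 3, which leaves fewer samples.

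Changes that took the other sign did not pass as reported. The interaction of Smad7 was 0.023 with RLE and with DESeq2 and 0.031 with the stricter filter, and with the block that of Tgfb1 was -0.037 and of Tgfbr1 -0.056. With libraries left out, the A5 change in WT ran from -0.14 to 0.30 for Tgfb3, and in RORgt-deficient mice from -0.064 to 0.31 for Tgfb1, -0.49 to 0.072 for Tgfbr1 and -0.0058 to 0.25 for Tgfbi. The genotype change in A5-NEG ran from -0.028 to 0.36 for Tgfb1, -0.11 to 0.47 for Inhba, -0.15 to 0.33 for Fst and -0.061 to 0.25 for Tgfbi, and in A5-POS from -0.076 to 0.28 for Tgfb1. The interaction ran from -0.30 to 0.21 for Tgfb1, -0.28 to 0.42 for Tgfbr1 and -0.12 to 0.21 for Smad7. Tgfb2 had the fewest counts of the 10, 254 in its lowest library.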
